A study of Mus musculus with 20 samples.

Results

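To describe the stem cell chromatin that reprogramming left closed, overlapping ATAC-seq peaks (1 bp or more) of 20 mouse libraries were joined, which gave 335858 regions. Open means here that a library has a peak in the region. Of all regions, 36490 (10.9%) were open in all 3 embryonic stem cell (ESC) libraries and closed in mouse embryonic fibroblasts (MEFs). Of these, 22012 were also closed in all 16 libraries of the reprogramming time course, which is 60.3% of the ESC regions closed in MEFs and 6.55% of all regions. The number was 8293 when every library was given the same number of top-scoring peaks, and 10014 when ESC peaks alone needed a score of 100. These 22012 regions, called never opened here, were chosen by their peak calls. Their open and closed states are therefore a description and carry no test. The 14478 ESC regions that opened in at least 1 time-course library and the 31355 regions open in MEFs and all 3 ESC libraries (shared regions) were used for comparison.

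ATAC-seq reads out accessible DNA through cutting by Tn5 transposase. The MEFs came from E13.5 embryos of OG2 males, which carry an Oct4-GFP reporter, crossed to 129 females, and the ESCs came from OG2 embryos and were kept feeder-free in N2B27 with 2 inhibitors and LIF. MEFs were infected with pMXs retroviruses carrying Oct4 with native Nanog (Nanog+Oct4) or Oct4 with NanogN70 (NanogN70+Oct4), in which the BRG1-interacting stretch of SS18 is fused to the N-terminus of NANOG. Both paths shared Oct4, the iCD3 medium and, from day 7 or another set time, the ESC medium, and each gave 1 library a day on 8 days from day 0 to day 12 (days 0, 1, 3 and 5, then days 7, 8, 10 and 12). There was 1 MEF library, and the 3 ESC libraries carry ESC in their titles and MEF in their source field.

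In reprogramming, fibroblast chromatin has to close and the enhancers and promoters of pluripotency genes have to open. Pioneer factors such as OCT4 and SOX2 can engage closed sites, and the BAF complex, whose ATPase is BRG1, slides and evicts nucleosomes there. ESCs grown with inhibitors of MEK and GSK3 and with LIF are in the naive state, which is held by factors such as ESRRB, KLF4, KLF5, TFCP2L1, PRDM14 and NR5A2. A culture at day 12 is a mixture in which few cells may have reached that state. In such bulk libraries fewer open cells and less signal per cell cannot be told apart, and a region without a peak is not shown to be closed in every cell.

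Read numbers were not given in the sources used here. The precision of each call is therefore unknown. The ESC libraries had 97450 to 116006 peaks, the MEF library 125467 and the time-course libraries 44126 to 107038. At the 14217 regions open in all 20 libraries, the median summit pileup (the number of tags stacked at the summit, not scaled to depth) was 29 to 38 in ESCs, 39 in MEFs and 16 to 60 in the time course. Each time-course library had a peak at 66.3% to 85.3% of the shared regions. The NanogN70 day 3 library stood apart. It had the highest pileup (60), and 13 of 15 lymphocyte and leukocyte genes had a peak within 2 kb of a start site there, against 6 in MEFs and 7 to 9 in ESCs. Without it, 23337 regions were never opened.

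Several sequences show what the members look like. All are from GRCm38, the build that mm10 names, are cut so that no annotated exon is included, and are given 5′ to 3′. The start site of Nanog is shown first because this pluripotency gene was also delivered by the viruses. Its member held the composite OCT-SOX consensus (CATTGT, any base, ATGCAAA, or its reverse complement), which is in capitals. The next 3 sequences are the members with the highest scores that held, in turn, this composite consensus, the ESRRB consensus TCAAGGTCA and the OCT consensus ATGCAAAT, also in capitals. Those for the composite and ESRRB were chosen after their values were seen.
Nanog start, chr6:122707375-122707488, plus strand: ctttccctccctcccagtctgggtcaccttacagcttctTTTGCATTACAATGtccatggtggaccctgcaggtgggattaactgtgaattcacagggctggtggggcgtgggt
Intergenic, 758 kb from the Ythdf3 start, chr3:16941387-16941587, plus strand: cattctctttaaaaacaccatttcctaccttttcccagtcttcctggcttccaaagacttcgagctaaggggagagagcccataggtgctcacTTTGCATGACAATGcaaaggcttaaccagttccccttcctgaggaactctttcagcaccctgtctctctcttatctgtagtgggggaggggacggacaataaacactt
Intron, 4.99 kb from the Zdhhc20 start, chr14:57848199-57848399, plus strand: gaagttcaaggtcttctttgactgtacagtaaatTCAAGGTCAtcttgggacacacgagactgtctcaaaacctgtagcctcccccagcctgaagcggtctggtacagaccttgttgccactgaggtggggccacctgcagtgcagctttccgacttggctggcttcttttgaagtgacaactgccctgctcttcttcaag
Gm14139 start, chr2:150181555-150181754, plus strand: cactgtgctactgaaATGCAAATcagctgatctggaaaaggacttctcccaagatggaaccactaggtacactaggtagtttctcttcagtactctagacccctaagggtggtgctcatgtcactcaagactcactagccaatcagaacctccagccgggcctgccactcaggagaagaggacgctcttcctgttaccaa

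Most ESC regions closed in MEFs were open in no or few time-course libraries. A further 5298 (14.5%) were open in 1 of the 16 libraries, and 32 were open in all 16. Of the shared regions, 45.3% were open in all 16 and 898 (2.86%) in none. The plot of time-course libraries open per region shows these opposite shapes. By path, 29194 regions (80%) were closed in all 8 Nanog libraries and 23110 (63.3%) in all 8 NanogN70 libraries. NanogN70 opened 7182 regions that no Nanog library opened, and Nanog opened 1098 that no NanogN70 library opened. Of the 7182, 1234 were open only in the NanogN70 day 3 library, which stood apart, and 1769 only in that of day 12. The highest such number for a Nanog library was 209, on day 7. Just inside the rule, 3681 members (16.7%) had a lowest ESC score under 60. Just outside it, the regions open in 1 time-course library had a median score of 69.2 there, and 31.5% of those scores were under 60.

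**Figure D1:**
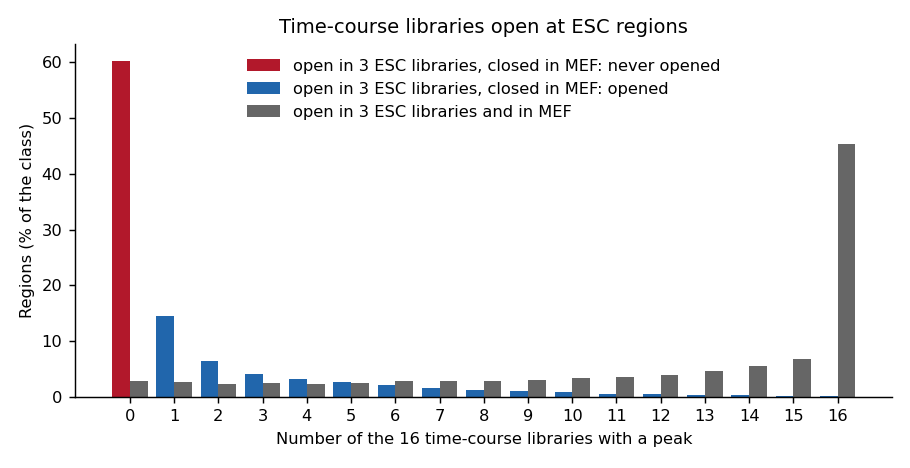
The x axis gives the number of the 16 time-course libraries with a peak and the y axis the share of regions of each class in percent. Of ESC regions closed in MEFs, 60.3% sit at 0, while 45.3% of regions open in MEFs and ESCs sit at 16.

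The never opened regions were weaker in ESCs than the regions that opened. Their median pileups in ESC replicates 1, 2 and 3 were 11, 12 and 10, against 14, 16 and 12 at opened regions and 20, 22 and 17 at shared regions. The never opened medians were lowest in each library, and the ranges over replicates of never opened and opened regions met at 12. In the same order, median scores (-10 times the log10 of the MACS p-value) were 132, 149 and 112 against 188, 212 and 157. Median widths were 291 bp for never opened, 429 bp for opened and 722 bp for shared regions. A width spans all peaks joined into the region, so regions open in more libraries are wider in part by construction. Among ESC regions closed in MEFs, the median was 378 bp with 1 time-course library open and 860 bp with all 16. The part of the ESC peaks themselves in these widths was not tested. A call that used only the other 2 ESC libraries was met by the held-out ESC library at 83.8%, 89.4% and 74% of never opened regions, a mean of 82.4% ± 7.82 (SD, n = 3). At opened regions these shares were 92%, 95.1% and 86.2% (91.1% ± 4.49, n = 3), higher with each library held out. With 3 libraries no exact test of this difference could pass 0.05, and none was made. A further 14635 regions were open in exactly 2 ESC libraries and nowhere else.

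The share of regions never opened was lower at higher ESC scores. Among ESC regions closed in MEFs with a lowest ESC score of 50 to 75, 70.9% were never opened. The share fell over the bins to 41.3% at 300 to 500, 26.5% at 500 to 1000 and 4.73% (14 of 296) at 1000 or more. In shared regions of the same ESC scores, the shares without any time-course peak were 8.51%, 1.05%, 0.214% and 0. Shared regions are open in the starting MEFs, so these shares do not measure how often a site open in few cells of a mixed culture is missed, which was not tested. The plot of shares by ESC score shows both curves. Because these bins use the ESC scores of the rule, they are a description.

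**Figure D2:**
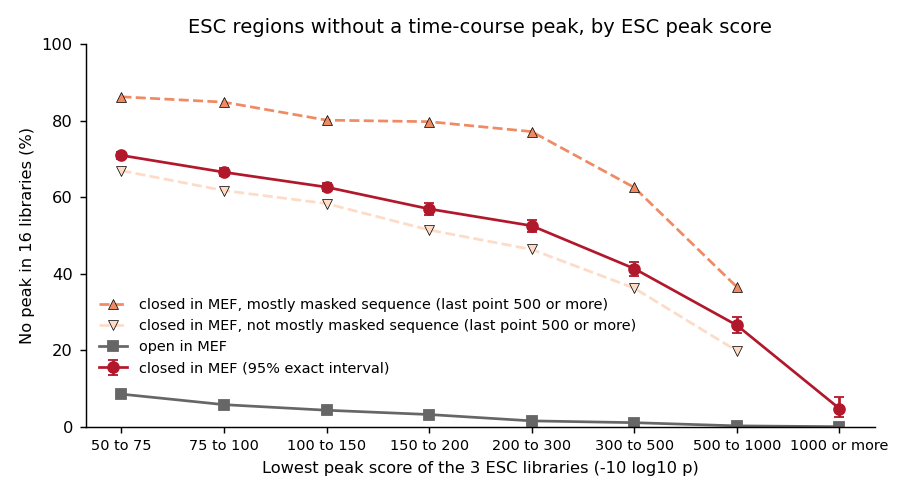
The x axis gives the lowest peak score over the 3 ESC libraries (-10 log10 p) and the y axis the percent of regions with no peak in 16 time-course libraries. Regions closed in MEFs fall from 70.9% to 4.73%, those of mostly masked sequence lie above the rest in each of their 7 bins, and regions open in MEFs stay at or under 8.51%.

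Each time-course library was then held out, and the regions closed in MEFs and in the other 15 libraries were asked of it. The Nanog libraries opened 0.249%, 0.204%, 0.159%, 0.807%, 0.941%, 0.766%, 0.0953% and 0.376% of them on days 0 to 12. The NanogN70 libraries opened 0.614%, 0.209%, 5.31%, 0.954%, 3.04%, 0.829%, 1.03% and 7.44%. NanogN70 was higher on 8 of 8 days, with the widest gaps on days 3 and 12 and a gap of 0.00452 percentage points on day 1. The means were 2.43% and 0.45%, a difference of 1.98 percentage points. These are the regions that a single library kept out of the never opened class, and each day has 1 library per path, so the shares are a description and no p is given. Without day 3 the difference was 1.53, and without day 12 it was 1.25. Peak detection at shared regions also differed between the paths, with NanogN70 higher on 6 of 8 days, and subtracting its difference in points turned the direction (-0.616, NanogN70 higher on 4 of 8 days). That subtraction sets points on shares of 66.3% to 85.3% against points on far smaller shares, so the part of detection in the difference was not tested.

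**Figure D3:**
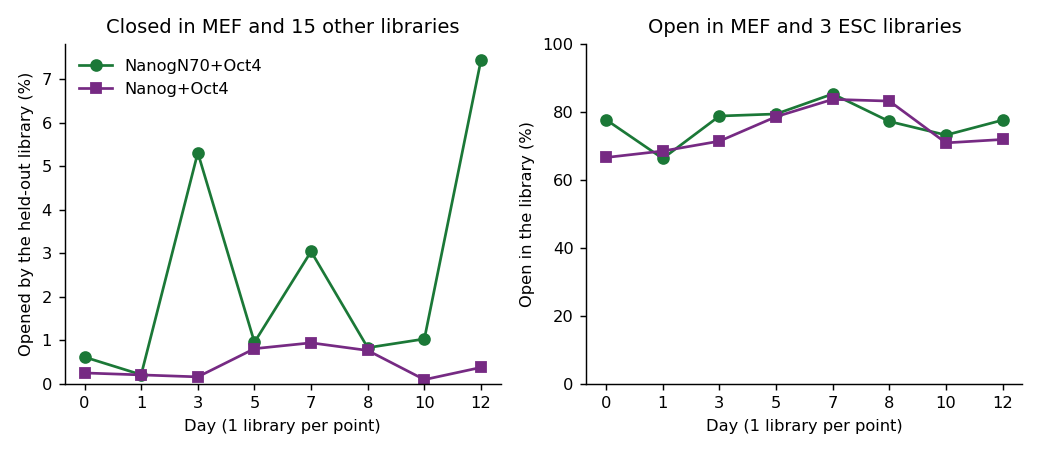
The x axes give the day and the y axes percent, with 1 library per point: left, regions closed in MEFs and the 15 other time-course libraries that the held-out library opened; right, shared regions open in it. NanogN70 reaches 7.44% on day 12 on the left, and both paths lie between 66.3% and 85.3% on the right.

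Never opened regions were mostly distal, at a share close to that of all regions. Of the 22008 on chromosomes 1 to 19, X and Y, 83.7% had their summit beyond 2 kb of any GENCODE M21 start site, against 78.6% of opened, 46.2% of shared and 81.6% of all regions. By summit, 16.3% lay within 2 kb of a start, 4.84% in other exons, 39.9% in introns and 39% between genes. Over all regions these shares were close, at 18.4%, 3.52%, 42% and 36.1%. Within 500 bp of a protein-coding start lay 3.89% of never opened regions, against 7.73% of opened, 40.7% of shared and 7.12% of all regions. Chromosome 6 held 7.6% of never opened and 5.98% of all regions, and chromosome 11 held 7.55% and 6.32%. Of their ESC regions closed in MEFs, 63.9% and 58.4% were never opened, against 60.3% overall. At regions open in all 20 libraries, the median ESC pileup on chromosome 6 was 1.22, 1.24 and 1.25 times that of the other chromosomes, against 0.949 in MEFs and 0.893 to 1 in the time course. On chromosome 11 the ESC ratios were 1.12, 1.19 and 1.18, against 1 in MEFs and 0.957 to 1.12 in the time course, which reaches ESC replicate 1. The part of this unequal ESC signal in the members on both was not tested.

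Never opened regions less often had a peak nearby than opened regions did, in the time course and in MEFs and ESCs. A peak of at least 1 time-course library lay within 5 kb of 14168 of them (64.4%). Single time-course libraries had a peak that close to 20.2% to 36.9% of never opened regions, and each had a higher share at opened regions. Over all regions the shares were 19.7% to 42.9%, above that of never opened regions in 14 of 16 libraries. MEF peaks lay that close to 41.8% of never opened and 50% of opened regions, and peaks of the 3 ESC libraries to 53.4%, 55.9% and 49.3% against 56.6%, 58.8% and 52.3%. Over all regions the MEF share was 48.8%, above that of never opened regions. The ESC shares over all regions were 42.6%, 45.4% and 39.4%, below those of never opened regions. Runs with gaps of at most 10 kb held 31.6% of members, a share not set against other classes, and 15 runs held 6 or more. The longest, of 8 members over 39.3 kb, lay at the nuclear pore gene Nup205 and the transporter gene Slc13a4, at chr6:35236149-35275453, and held no opened region. By nearest protein-coding start within 100 kb, Plcb4, a phospholipase C gene, had the most members (20 of its 25 ESC regions closed in MEFs). It was followed by Pde4d, a cAMP phosphodiesterase gene (19 of 28), Etl4 (18 of 32) and the polarity gene Pard3 (18 of 24). Next was Bcat1, for amino acid catabolism (17 of 21). In this order, 80%, 67.9%, 56.2%, 75% and 81% of their ESC regions closed in MEFs were never opened, against 60.3% of all such regions. Etl4 thus lay below that share. The genes were ranked by number of members and offered unlike numbers of such regions, so the ranking is not one of shares.

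Repeated sequence was common in the members. Mostly masked windows, in which at least 50% of the 201 bp around the summit are soft-masked as repeats in the genome file, made up 26.4% of never opened regions, 10.9% of opened, 3.04% of shared and 9.54% of all regions. Put the other way, 78.6% of the mostly masked ESC regions closed in MEFs were never opened, against 55.7% of the others. The share was higher for mostly masked regions in each of 7 ESC score bins, with 86.2% against 66.9% at 50 to 75 and 36.5% against 19.8% at 500 or more. Repetitive reads were removed by the authors, and how this filter acted on repeats in each library was not tested.

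Short sequences recurred word for word. After the values were seen, the 16-base sequence found in most members was taken, its members were set aside, and this was repeated until 8 sequences were taken. Any of the 8 was present in 7.02% of never opened, 2.79% of opened, 0.823% of shared and 1.84% of all regions. The most frequent, gtgtggccttgttgga, was in 354 never opened and 71 opened regions, so 83.3% of its ESC regions closed in MEFs were never opened, against 60.3% overall and 78.6% of mostly masked regions. It was in 0.0734% of shared and 0.317% of all regions. The second, ccagaagagggcatca, was in 278 never opened and 76 opened regions (78.5%). The third, ctgctacctgctgaga, was in 211 and 82 (72%, below the share of mostly masked regions), and its members were the strongest of the 3, with a median lowest ESC score of 202 against 101 and 77.4. The eighth, gaacaatagagtgatc, was in 136 and 33 (80.5%), and in 2 shared regions. The sequences were taken for their number of never opened regions, so these shares are raised by the choice. By the same steps on opened regions, 2 further sequences were found, ccagaagagggcacca and ctgagccatctctcca, with 65.6% and 68.4% never opened. In the first 3, mostly masked windows made up 86.7%, 82.4% and 91.9% of members, so the comparison with mostly masked regions is the closer one. The member with the highest scores for each of the first 3 is shown with the recurring bases in capitals.
Intergenic, 130 kb from the Zfp281 start, chr1:136754363-136754563, plus strand: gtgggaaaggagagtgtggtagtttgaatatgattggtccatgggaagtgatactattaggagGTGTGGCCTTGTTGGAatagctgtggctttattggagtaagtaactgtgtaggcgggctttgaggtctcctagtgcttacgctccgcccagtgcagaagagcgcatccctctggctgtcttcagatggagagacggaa
Intron, 46 kb from the Mreg start, chr1:72166232-72166432, minus strand: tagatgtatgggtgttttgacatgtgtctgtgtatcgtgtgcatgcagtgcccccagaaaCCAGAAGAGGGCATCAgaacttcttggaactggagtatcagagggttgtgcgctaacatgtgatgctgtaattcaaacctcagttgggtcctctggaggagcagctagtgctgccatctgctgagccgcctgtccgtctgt
Intergenic, 10.9 kb from the Tmprss11a start, chr5:86407297-86407497, minus strand: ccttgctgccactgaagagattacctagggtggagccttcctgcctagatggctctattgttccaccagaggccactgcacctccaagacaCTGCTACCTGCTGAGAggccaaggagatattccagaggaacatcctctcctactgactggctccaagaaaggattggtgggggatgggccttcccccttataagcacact
The first of these had ESC scores of 1047, 1396 and 1082, the second 367, 318 and 313, and the third 1709, 1588 and 1049.

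Consensus sequences of KLF factors, ESRRB, NR5A2, OTX2 and TEAD factors were more frequent in never opened than in opened regions, and those of OCT factors, CTCF and the naive factors TFCP2L1 and PRDM14 were less frequent. Exact matches on either strand within 100 bp of the summit were counted. GGGTGTGGC, a KLF consensus, was in 2.97% of never opened, 1.85% of opened, 1.13% of shared and 1.04% of all regions. TCAAGGTCA, bound by ESRRB, was in 1.43%, 0.726%, 0.239% and 0.479%. TCAAGGCCA, bound by NR5A2, was in 1%, 0.608%, 0.293% and 0.525%. GGATTA, bound by OTX2, was in 6.89%, 5.05%, 3.69% and 5.93%, and ACATTCC, bound by TEAD factors, in 4.7%, 3.5%, 3.32% and 5.21%. At a lowest ESC score of 500 or more, KLF was in 1.29% of never opened and 2.29% of opened regions, and ESRRB in 0.645% and 0.914%. CTCF was in 0.43% and 0.392% there, and PRDM14 in 0.215% and 0.196%. Only 451 never opened regions scored 500 to 1000 and 14 scored 1000 or more. These shares thus rest on few matches, too few to call an order. Over all scores, ATGCAAAT, bound by OCT factors, was less frequent in never opened regions, with 2.59% of never opened, 3.72% of opened, 1.18% of shared and 2.65% of all regions. CTCF (AGGGGGCGC) was in 1.07%, 1.97%, 2.67% and 0.577%. SOX (CATTGTT) was in 4.19%, 4.56%, 1.87% and 3.75%, with no steady order of never opened and opened regions: within 25 bp of the summit it was in 1.1% and 1.03%. TFCP2L1 (CCAG, any 6 bases, CCAG) was in 2.95% of never opened and 3.53% of opened regions, and PRDM14 (GGTCTCTAA) in 0.105% and 0.194%. The composite OCT-SOX consensus was in 4 never opened and 6 opened regions, too few to compare. AP-1 (TGANTCA), which serves fibroblast enhancers, was in 6.38% of never opened, 6.07% of opened and 17.3% of all regions.

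Some of these matches lay in repeats. Of the 354 members with gtgtggccttgttgga, 135 also held the KLF consensus, and the letters of both can overlap. In windows that were not mostly masked, KLF was in 2.42% of never opened and 1.68% of opened regions, and in mostly masked windows in 4.5% and 3.29%. ESRRB was in 1.46% and 0.698% of the windows that were not mostly masked. OCT was in 2.69% and 4.04% there, and in 2.28% and 1.07% of the mostly masked windows, so its order turned in repeats. TEAD turned as well, with 4.78% and 3.31% of the windows that were not mostly masked and 4.47% and 4.99% of the mostly masked. CTCF (0.361% and 0.19%, or 21 and 3 regions) and PRDM14 (0.0859% and 0.0632%, or 5 and 1) also turned in mostly masked windows, on few matches. YY1 (AAGATGGCG) was in 0.476% and 0.256% of windows that were not mostly masked, and in 1.19% and 0.506% of the mostly masked. The plot of consensus shares gives 15 of the 20 sequences searched.

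**Figure D4:**
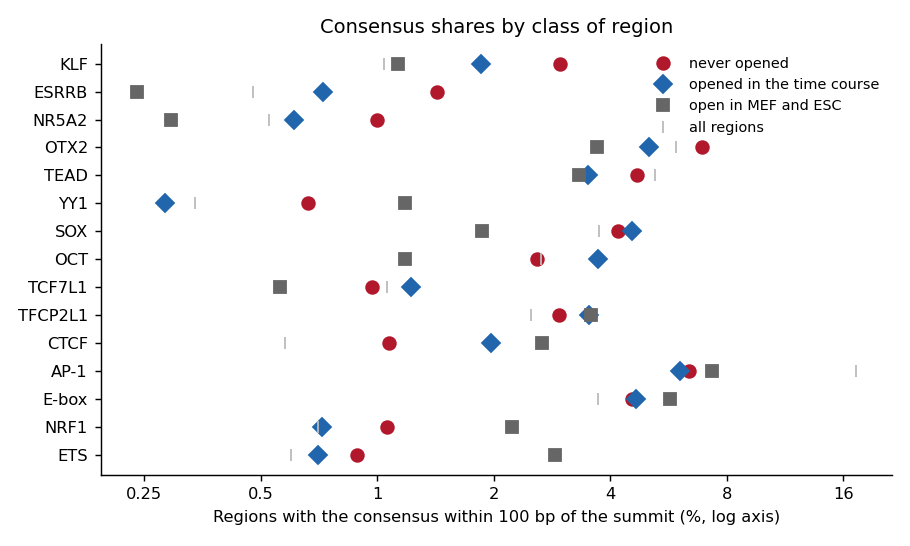
The x axis is a log axis of the percent of regions with an exact consensus match within 100 bp of the summit, for 4 classes of region and 15 consensus sequences. Never opened regions lie to the right of opened regions for KLF (2.97% and 1.85%) and ESRRB (1.43% and 0.726%), and to the left for OCT and CTCF.

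The member with the highest scores lay between genes at chr1:143555197-143556066, 80892 bp from the start of Cdc73, a subunit gene of the PAF1 transcription elongation complex. Its ESC scores were 1790, 1941 and 1661 and its pileups 57, 61 and 53, so all 3 libraries were far above the ESC median of 10 to 12. Of the 10 strongest members, 5 were intergenic, 3 lay within 2 kb of a start and 2 in introns. Those at starts were at the transcribed pseudogene Zfp640 (scores 1453, 1373 and 1255), the lincRNA Gm12088 and the coding gene Gm14139 (1589, 1582 and 1109). An intron of Setmar held another (1406, 1638 and 1243). Among the 10 strongest members within 2 kb of a protein-coding start were also Dennd5b, Gm14401, Gm6871, Vmn2r12, Plekhd1, the telomere gene Pot1a and the zinc finger genes Zfp936 and Zfp977. Dppa2 was among them as well.

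Of the genes that define pluripotency, those of the core list had few never opened regions. The gene body and 10 kb on either side were counted, and the background over all protein-coding genes was 17253 never opened of 29966 ESC regions closed in MEFs (57.6%). The 10 core genes had 7 of 21 (33.3%). Sox2, Sall4, Lin28a and Tdgf1 had 1, 2, 3 and 1 such regions, all of which opened, and Pou5f1 and Zfp281 had none. Fgf4, a growth factor gene, had 3 of 6, Utf1 2 of 2, Trim28 1 of 4 and Nanog 1 of 2. The 14 naive genes had 43 of 75 (57.3%). Esrrb had 9 of 15, Tet2 and Manba 7 of 11 each, Nr5a2 and Zfp42 4 of 6 each and Klf5 3 of 3. Tfcp2l1 had 2 of 7, Prdm14 2 of 5, Nr0b1 2 of 3, Tbx3 1 of 1, Tcl1 1 of 2 and Fbxo15 1 of 3. The 2 regions of Klf2 opened, and Klf4 had none.

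The never opened region at Nanog covered its start site, at chr6:122706909-122707692. Its ESC scores were 297, 448 and 259 and its pileups 33, 56 and 35. Of the 16 time-course libraries, 15 had peaks on coding exons of Nanog, while MEF and ESC libraries had none there. All 45 such peaks had their summit inside an exon, with median offsets of 10 and 18 bp between peak and exon ends. The highest exon pileups were 559, 299, 84, 30, 30, 21, 17 and 9 in the Nanog libraries and 428, 236, 41, 24, 20, 18, 8 and 0 in the NanogN70 libraries. The nearest peak of any kind lay 34 to 94 bp from the member in 11 libraries and 3729 to 3839 bp away in the other 5. Raised tag density beside a region also raises the local background of the peak caller, and its part in the missing calls was not tested. The NanogN70 day 12 library had no exon peak and no peak at the start site.

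Late pluripotency genes, which are switched on late in reprogramming, had 21 of 37 (56.8%) never opened. Dppa2, whose protein guards developmental promoters against DNA methylation, had 5 of 6. The strongest, at chr16:48303176-48304003 and 267 bp from a Dppa2 start, had ESC scores of 887, 1005 and 798 and pileups of 39, 45 and 37. Its partner gene Dppa4, which lies next to it, had 3 of 3, and this same region is counted for both. Gdf3 had 4 of 5. The other 7 late genes had 9 of 23, among them L1td1 with 0 of 3, Dppa5a with 1 of 4 and Mybl2 with 1 of 3. The 1 member of Dppa5a lay 96 bp from a start of that gene, and the 1 member of Mybl2 lay 113 bp from one of its starts. With each region counted once, the late list had 19 of 35 (54.3%). Peaks within 2 kb of a start were present at 10 of 10 late genes in each ESC library, at 4 in MEFs and at 1 to 8 in the time course.

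Germline genes had never opened regions at their start sites. This list had 19 of 25 (76%) never opened, the highest share of the 16 lists, and 11 of its 20 genes had a member within 2 kb of their own start. So did 7 of 10 late genes, 7 of 14 naive genes and 9.27% of all protein-coding genes. For 10 of these 11 no region opened. In the other direction, Tex19.1 (2 regions), Dmc1 (1) and Rec8 (1) had opened regions only, and Dazl, Stag3, Taf7l, Slc25a31, Tdrd1 and Tex101 had no ESC region closed in MEFs. The genes of this list were named in full after the values were seen. Those with start members include Ddx4 and Mael, of the piRNA pathway, with ESC scores of 206, 270 and 127, and of 188, 255 and 169 at their starts. The synaptonemal complex gene Syce1 had 271, 472 and 254. Sycp1, Sycp3 and Piwil2 had 3 never opened regions each and no opened region. Hormad1, Asz1, Sohlh2 and Brdt also had members alone, and Mov10l1 had 1 of 3. Pileups at these 12 start members were modest, from 6 to 20 in the ESC libraries. Peaks within 2 kb of a start were present at 17 to 20 of the 20 genes in ESCs, 4 in MEFs and 3 to 7 in the time course. Since 12 of the regions at these starts were chosen as open in ESCs and closed elsewhere, this gap follows in part from the rule and carries no test. The plot of peaks at listed start sites gives these counts by library.

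The E-box CACGTG, a target of MYC family and MGA complexes, was in 6 of these 12 start members, which lay within 2 kb of their own start. In the narrower window of 500 bp from any coding start, it was in 49 of 857 never opened regions (5.72%). There it was in 5.36% of opened, 7.8% of shared and 6.22% of all regions. Hormad1 and Sycp3 are shown since each held 2 copies. E-boxes are in capitals, and in Hormad1 so are GGCGGGAA (E2F6) and 2 overlapping GCATGCGC (NRF1) matches. The E2F6 consensus was in 1 of the 12 start members and the NRF1 consensus in 3.
Hormad1 start, chr3:95559517-95559676, plus strand: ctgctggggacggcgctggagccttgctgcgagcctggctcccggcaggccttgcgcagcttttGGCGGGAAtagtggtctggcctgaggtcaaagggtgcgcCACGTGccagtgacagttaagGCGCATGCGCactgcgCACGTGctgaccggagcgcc
Sycp3 start, chr10:88459477-88459568, plus strand: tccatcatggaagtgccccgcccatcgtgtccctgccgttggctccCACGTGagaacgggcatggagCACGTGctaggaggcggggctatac
Hormad1 had ESC scores of 131, 189 and 138 and Sycp3 of 108, 134 and 110 at these starts, and the library with the highest score was replicate 2 in both.

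**Figure D5:**
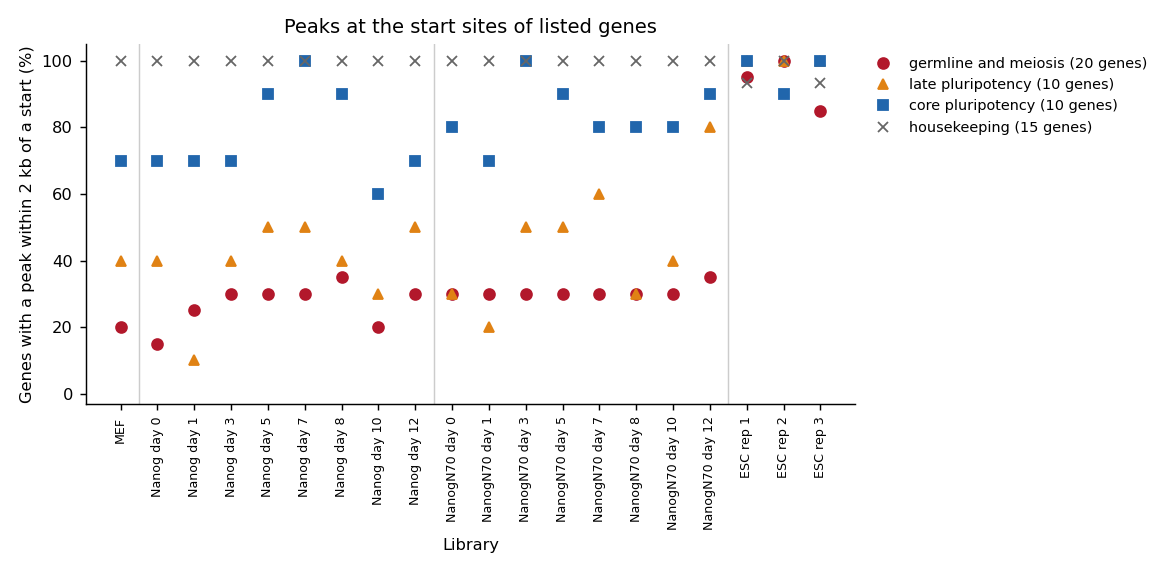
The x axis lists the 20 libraries and the y axis gives the percent of listed genes with a peak within 2 kb of a start site, with 1 point per library and list. Germline genes reach 17 to 20 of 20 in ESCs and 3 to 7 in every time-course library.

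Of the genes of LIF, Wnt and FGF signalling, 27 of 43 regions (62.8%) were never opened. Lifr, the LIF receptor gene, had 3 of 5, with scores of 639, 780 and 738 at the intron region chr15:7132652-7133148. Tcf7l1, a repressor of Wnt target genes in ESCs, had 9 of 17, and Axin2 3 of 5. Formative and primed genes had 13 of 26 (50%), with 3 of 8 at Lef1 and 3 of 5 at Otx2. The Nodal pathway had 9 of 18 (50%), with 2 of 3 at Acvr1b, an activin receptor gene. Genes that write or erase DNA methylation had 18 of 38 (47.4%), of which Tet2 held 7, Tet1 4 and Dnmt3l 2.

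Lists of other lineages had fewer regions to count. Mesoderm genes had 6 of 8 (75%), trophoblast 6 of 17, endoderm 7 of 15 and neural genes 7 of 20. Msgn1, a mesoderm transcription factor gene, had its stronger member at 497, 523 and 418. The fibroblast list had 8 of 18, lymphocyte and leukocyte genes 3 of 14 and housekeeping genes 8 of 14 (57.1%), a share near the background. Genes of the Mir290 and Mir302 groups had 1 never opened region of 4, the 1 being counted for 5 neighbouring Mir290 genes. No list was tested, and genes of unlike length offer unlike numbers of regions.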

How the data were processed

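ATAC-seq reads were trimmed by the authors with Trim Galore (0.6.4), aligned to mm10 with Bowtie2 (2.4.5) and filtered with SAMtools (1.16.1) for repetitive, low-quality (mapping quality under 30) and mitochondrial reads. Peaks were called by the authors per library with MACS (1.4.2), with no model, a shift size of 25 bp and duplicates kept. The score the authors deposited for each peak is -10 times the log10 p-value, at least 50. Summit files deposited by the authors hold the signal there, a coverage in tags (pileup) not scaled to depth. The label protocol and the methods give different cell numbers.

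Peaks were merged with Python (3.11.15), NumPy (2.4.6), pandas (2.3.3) and SciPy (1.17.1), and the steps were tested on simulated peaks. All region ends lay inside the GRCm38 chromosomes, and 4 members on other sequence names were left out of annotation and sequence. Motifs were matched exactly on both strands within 100 bp of the summit. The summit was that of the peak with the highest score in the region. The 16 gene lists were counted within 10 kb of gene bodies.

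The regions, lists and motifs were chosen with earlier results of these data known. Genes named were the 10 strongest members, the 10 strongest within 2 kb of a coding start, up to 3 per list by number of members, all core and naive genes, and the 5 genes with most members. All germline list genes were named in addition, after the values were seen. The paths were set side by side by day; the planned sign-flip test over days is not reported, because its shares come from the peak calls of the rule. All comparisons are descriptions, since regions are not replicates. In addition, L1td1, Dppa5a and Mybl2 were named after their values were seen. Alternatives were other minimum scores, merging rules, distances and windows, equal peak numbers, and leaving out libraries.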

Additional observations from a re-analysis of the deposited data

How the results depend on the processing

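The number never opened (22012) was 14961 with a minimum score of 100 in every library and 10014 with it in ESCs alone. It was 8293 with the same number of top-scoring peaks in every library, 23435 with direct overlap, 18794 with peaks widened by 250 bp and 22948 with MEF left out of the rule. Without each ESC replicate it was 25042 to 30005, and without each time-course library 22033 to 23792. The share of ESC regions closed in MEFs that never opened was 66%, 57.3% and 63.7% with the minimum score of 100, the widened peaks and NanogN70 day 3 left out, and 62.1% to 64% without each ESC replicate. The share beyond 2 kb was 82.4% and 84.8% in the first 2 of these and 83.5% to 83.7% without each ESC replicate. It was 93.6% beyond 500 bp, 68.3% beyond 5 kb and 89.7% with coding starts only. The median ESC pileup of 11 was 15 with the minimum score of 100 and 9.5 to 10 without each ESC replicate. A time-course peak lay within 1 kb of 5.47% and within 20 kb of 66.8% of members on average, against 27.6% at 5 kb. The difference between paths of 1.98 percentage points was 1.8 with the minimum score of 100 and 2.62 with equal peak numbers with NanogN70 higher on 7 of 8 days in both, and 1.25 to 2.26 without each day. It was -0.616 with the difference at shared regions subtracted, but that sets points on shares of 66.3% to 85.3% against points on shares of 0.0953% to 7.44% and does not correct for detection. With 25 bp windows, 16 of 20 motifs kept the order of never opened against opened regions, and SOX, E-box, ETS and AP-1 did not. The paths were paired by day, and no fit with a replicate block was possible because only the 3 ESC libraries have replicate numbers. The unknown depth limits every call of a closed region.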
